A study of Mus musculus with 8 samples.

Results

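The visual cycle genes are 9 genes whose products carry, isomerise or reduce vitamin A compounds (retinoids) in the eye: Rpe65, Lrat, Rdh5, Rgr, Stra6, Ttr, Rlbp1, Rdh11 and Rdh12. They were taken as every probe set whose single gene symbol on the platform is one of these names, which gave 15 probe sets of the 45037 measured, and 9 genes of 18193 with a symbol of their own. A further probe set shared by Rdh5 and Bloc1s1 was left out. The injected group was 4 mouse retinas labelled as injected, with a compound-based treatment. The control group was 4 freshly dissected mouse retinas, labelled as time 0 d. Each retina was hybridised to 1 Affymetrix array. The compound, its dose, the route, the interval, the strain, the age and the sex are not given in the labels, and there is no sham-injected group, so effects of the needle, of what was injected and of how the tissue was handled cannot be told apart. The labels do not say whether retinas of a group are from separate animals. The p-values therefore measure only how far these samples differ, which may be technical.

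The visual cycle regenerates the light-sensitive 11-cis-retinal after a photon has turned it into the all-trans form. Photoreceptors release all-trans-retinal and reduce it to retinol, the pigment epithelium esterifies the retinol, isomerises the ester and oxidises the product, and the 11-cis-retinal returns to the outer segments. Müller glia hold a carrier for the same retinoid and are held to serve cones by another route. The pigment epithelium lies behind the retina and is pulled away to a varying degree when a retina is dissected. In whole tissue, fewer cells of a type and less RNA per cell cannot be told apart.

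Values are on a log2(intensity + 16) scale after quantile normalisation, and differences are injected minus control on that scale, from limma with Benjamini-Hochberg adjustment over the 27022 probe sets that passed a floor on mean signal (log2 value 8.5). Because 16 was added, differences of dim genes come out too small. No level is set against that of another probe set. Of the 9 genes, 8 had their brightest probe set tested, and Stra6 did not pass the floor. Among the 15 probe sets, 13 were tested. In limma 0 of these 13 had an adjusted p under 0.05, as did 0 of all tested probe sets (0%), and the smallest adjusted p among the members was 0.442, for Rdh11. At an unadjusted p under 0.05, 6 of the 13 were lower in injected retina and 0 were higher, against 3.33% and 3.66% of all tested probe sets. At 4 of the 13 the injected arrays all lay below the control arrays, against 2.6%. Several of the 13 read the same transcript, 4 of them that of Ttr. Taken once per gene at the brightest probe set, 3 of 8 genes (Rpe65, Ttr and Rdh11) were lower at an unadjusted p under 0.05, against 2.91% of 12886 genes, and 0 were higher, against 3.77%. At 2 of 8 (Rpe65 and Rdh11) the 4 injected arrays lay below the 4 control arrays, against 2.65% of genes. All 8 tested differences were negative, where 51.5% of genes were, with a median of -0.82 beside -0.01 over all tested genes. The injected mean of Rpe65 (8.04) was under the floor on mean signal, so the gene passed only through its control arrays. A gene that passes in this way is lower in injected retina by construction, whatever the size of the difference. These counts are a description of the 8 genes and not a test of them.

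Measures of the arrays as a whole bear on each difference. The tissue label was checked on Nrl, the transcription factor of rod fate, which stood at log2 values of 13.76 to 14.83 in injected and 14.47 to 14.94 in control retina; rhodopsin was not analysed here. The ratio of the 3' to the 5' control probe set of Gapdh, which grows as RNA is degraded or copied short, was 5.26 to 8.82 in injected and 3.36 to 4.68 in control retina. These groups did not overlap (two-sided p = 0.0286 in an exact permutation test, the lowest value possible with these group sizes). The same ratio for beta-actin was 43.3 to 59.7 in injected and 39.2 to 57.2 in control retina (p = 0.486 in the same exact test). The part of RNA quality in the differences below was not tested. Control replicate 2 had the highest summed pigment cell signal, and injected replicate 3 had the lowest array weight (0.1908).

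The sequence around a listed transcript start is shown for 4 of the genes, a pair that varied together and a pair of neighbours. Rpe65 and Rgr had an r of 0.73 across the 8 arrays after each group's mean was taken off. Rpe65 was under the floor on injected replicates 2 and 4, and that r rests in part on those arrays. For Rdh11 and Rdh12, neighbours on chromosome 12 with 17058 bases between them, r was -0.11. In RefSeq's annotation of GRCm38.p6, Rpe65 spans chr3:159599075-159625307, Lrat chr3:82892582-82903974, Rlbp1 chr7:79374865-79392250, Stra6 chr9:58063793-58154004 and Rdh5 chr10:128913588-128920037. Rdh11 spans chr12:79174233-79191855, Rdh12 chr12:79208913-79222664 and Rgr chr14:37034909-37049014. Each run is 300 bases on the same build, 250 before and 50 from a transcript start, read 5′ to 3′ on the gene's strand. Capitals mark GGATTA or its complement TAATCC, the core bound by the homeodomain factors Otx2 and Crx, and the E-boxes CACGTG and CATGTG (complement CACATG), a form bound by Mitf; both strands were searched and no matches overlapped.
Rpe65, chr3:159598931-159599230, plus strand: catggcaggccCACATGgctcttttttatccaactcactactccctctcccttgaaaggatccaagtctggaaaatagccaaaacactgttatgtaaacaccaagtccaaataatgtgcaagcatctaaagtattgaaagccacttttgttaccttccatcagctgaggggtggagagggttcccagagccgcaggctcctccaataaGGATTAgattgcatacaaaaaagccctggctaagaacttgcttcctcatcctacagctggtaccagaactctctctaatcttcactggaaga
Rgr, chr14:37048965-37049264, minus strand: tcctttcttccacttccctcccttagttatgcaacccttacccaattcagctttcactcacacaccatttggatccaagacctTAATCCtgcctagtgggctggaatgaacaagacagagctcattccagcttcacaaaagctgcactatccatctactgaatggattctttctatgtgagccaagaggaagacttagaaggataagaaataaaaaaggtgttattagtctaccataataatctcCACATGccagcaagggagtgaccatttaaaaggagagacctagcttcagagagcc
Rdh11, chr12:79190912-79191211, minus strand: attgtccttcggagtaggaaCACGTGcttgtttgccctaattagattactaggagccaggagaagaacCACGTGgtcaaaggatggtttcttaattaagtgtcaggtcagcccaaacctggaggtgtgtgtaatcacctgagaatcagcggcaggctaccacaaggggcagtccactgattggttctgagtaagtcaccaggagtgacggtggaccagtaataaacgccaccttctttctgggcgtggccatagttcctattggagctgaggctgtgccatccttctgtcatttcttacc
Rdh12, chr12:79208663-79208962, plus strand: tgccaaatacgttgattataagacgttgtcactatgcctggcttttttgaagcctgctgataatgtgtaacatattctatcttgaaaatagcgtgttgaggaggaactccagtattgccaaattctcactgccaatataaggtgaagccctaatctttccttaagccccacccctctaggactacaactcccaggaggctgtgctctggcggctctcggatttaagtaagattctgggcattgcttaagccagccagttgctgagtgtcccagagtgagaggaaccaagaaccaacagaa
Counted in bases from the transcript start, the Rpe65 window held GGATTA beginning at -42 and CACATG at -239, and the Rgr window TAATCC at -167 and CACATG at -5. The printed Rdh11 window, which lies inside the gene's span, held CACGTG at -230 and -182. The window at the other listed start of Rdh11, at the outer end of that span (chr12:79191806-79192105), was not printed and held neither motif. The Rdh12 window also held neither motif. Of 12 windows listed for 8 of the genes, 2 held the Otx2 and Crx core and 4 an E-box, while 7.06% and 20.4% of 32851 promoter windows of the same length did. Lrat and Rdh5 varied together more closely than Rpe65 and Rgr (r = 0.97), and their windows, not printed, held neither motif. A match describes the letters only, and no link between motifs and r was tested.

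Rpe65, the retinoid isomerase that turns the all-trans ester into 11-cis-retinol and a gene of the pigment epithelium, had the largest difference of the 8. Its log2 values were 9.57, 6.65, 9.03 and 6.90 in injected replicates 1 to 4, against 10.84, 12.53, 10.48 and 10.39 in control replicates 1 to 4. On the deposited scale those arrays read 724, 70, 667 and 136 units in injected and 1849, 6017, 1408 and 1212 units in control retina. Every injected retina lay below every control, and injected replicates 2 and 4 were under the floor. The means were 8.04 ± 1.48 in injected and 11.06 ± 1.0 in control retina (SD, n = 4 each). The difference was -3.02 ± 0.73 (SE; 95% interval -4.67 to -1.37; limma adjusted p = 0.513), or 8.12-fold lower on this scale. The size of this difference and its fold rest in part on the 2 injected readings under the floor, where the distance from control is not measured. Under the 18 alternatives tried the difference stayed between -3.52 and -2.53. Some of these, such as the fit without a filter, return -3.02 by construction.

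**Figure D1:**
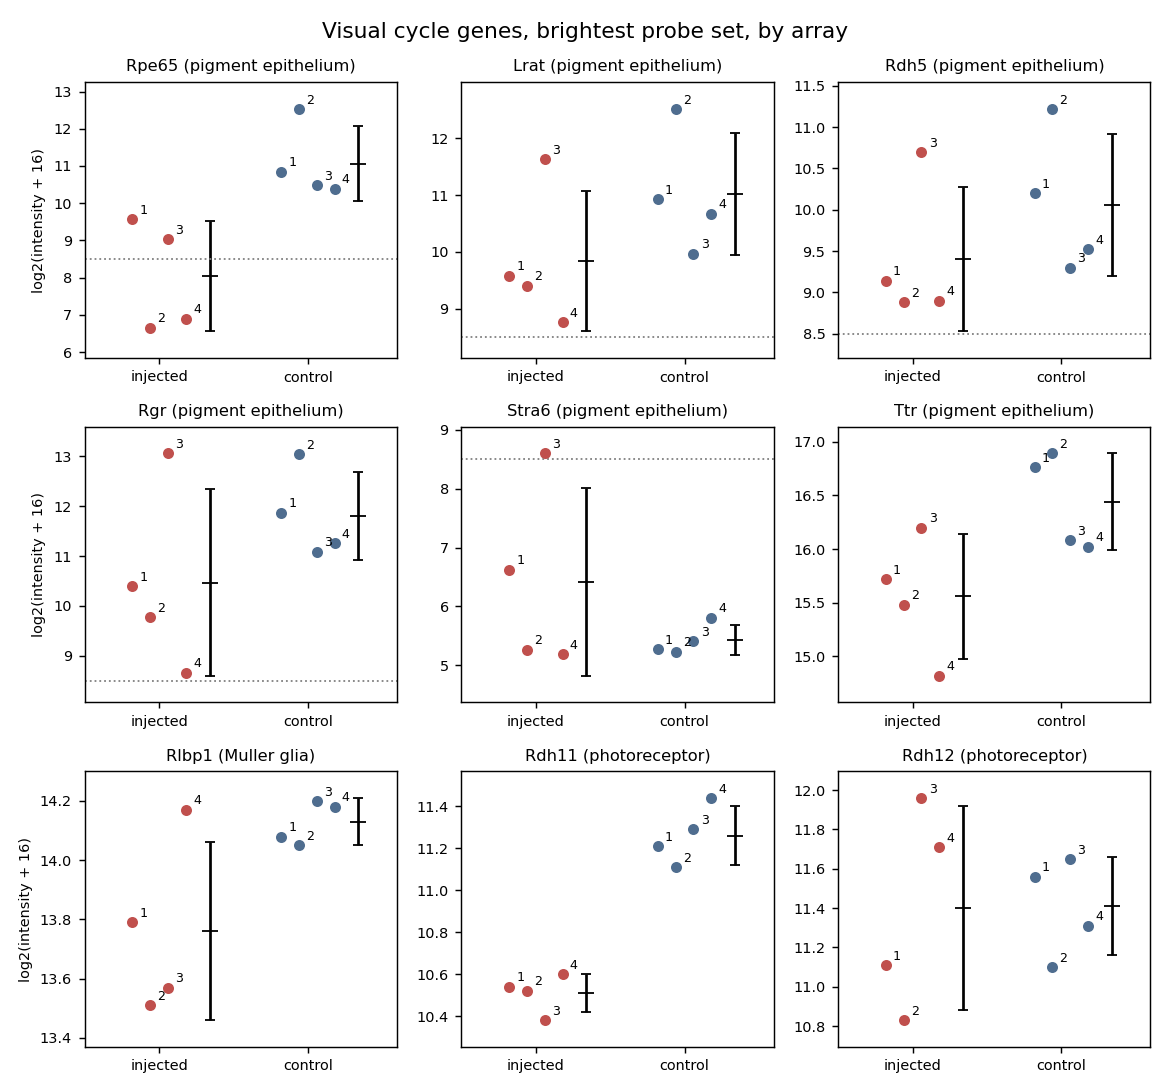
Log2(intensity + 16) of the 9 genes at their brightest probe set in 4 injected (red) and 4 control (blue) retinas, with replicate numbers beside the points, the mean ± SD as a black bar and the testing floor of 8.5 as a dotted line where it is near; the y axes differ. Rpe65 and Rdh11 have injected points that all lie under the control points, and the groups overlap at the other 7 genes.

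Lrat, which makes the retinyl ester that Rpe65 uses, and Rdh5, an 11-cis-retinol dehydrogenase that carries out the last oxidation in the pigment epithelium, had overlapping groups. Lrat read 9.58, 9.40, 11.63 and 8.76 in injected and 10.93, 12.52, 9.97 and 10.67 in control retina. Its difference was -1.18 ± 0.68 (SE; 95% interval -2.70 to 0.35; adjusted p = 0.742). Injected replicate 3 was higher than 3 of the 4 controls, and the other injected retinas were below all controls. Without injected replicate 3 the Lrat difference was -1.82, and without control replicate 2 it was -0.68. A second, dimmer Lrat probe set (1421345_at) was not tested and stood at 8.50 ± 0.49 in injected and 8.31 ± 1.65 in control retina (SD, n = 4 each). Rdh5 read 9.14, 8.88, 10.70 and 8.90 in injected and 10.20, 11.22, 9.30 and 9.52 in control retina, a difference of -0.66 ± 0.51 (SE; 95% interval -1.81 to 0.50; adjusted p = 0.766). The 2 arrays that were high for Lrat were again the high ones of each group. Without injected replicate 3 the Rdh5 difference was -1.12, and without control replicate 2 it was -0.27.

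Rgr, an opsin-like receptor of pigment epithelium and Müller glia that binds all-trans-retinal, spread more widely in injected retina. The values were 10.40, 9.77, 13.06 and 8.66 in injected and 11.87, 13.04, 11.09 and 11.26 in control retina. Injected replicate 3 stood beside the highest control, while the other 3 injected retinas were below all controls. The difference was -1.34 ± 0.85 (SE; 95% interval -3.25 to 0.56; adjusted p = 0.744), at -2.26 without injected replicate 3 and -0.75 without injected replicate 4. Stra6, the membrane receptor that takes retinol from its plasma carrier, read 6.62, 5.26, 8.60 and 5.19 in injected and 5.27, 5.23, 5.41 and 5.81 in control retina. It was above the floor on 1 array, injected replicate 3 (500 deposited units, against 19 to 75 on the other 7), and no difference was tested.

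Ttr encodes transthyretin, which carries thyroid hormone and the retinol-binding protein and is made in the eye by pigment epithelium and ciliary epithelium. Its brightest probe set (1454608_x_at) read 15.72, 15.48, 16.20 and 14.82 in injected and 16.76, 16.89, 16.08 and 16.02 in control retina. The groups overlapped only through injected replicate 3, and the difference was -0.88 ± 0.33 (SE; 95% interval -1.63 to -0.14; adjusted p = 0.709). All 4 probe sets for Ttr had a negative difference, between -2.37 and -0.74. At 1459737_s_at all 4 injected retinas were below all controls, at 14.57, 14.19, 14.69 and 13.43 against 15.60, 15.78, 14.99 and 14.94 in control retina (difference -1.11 ± 0.32, SE; adjusted p = 0.588). At 1451580_a_at the values were 9.59, 8.43, 11.22 and 6.38 in injected and 11.50, 12.76, 10.56 and 10.29 in control retina (difference -2.37 ± 0.94, SE; adjusted p = 0.709), and without injected replicate 4 that difference was -1.55. The remaining probe set, 1455913_x_at, read 14.83, 14.33, 15.99 and 13.83 in injected and 15.81, 16.15, 15.07 and 14.92 in control retina, with a difference of -0.74 that became -1.12 without injected replicate 3 and -0.44 without injected replicate 4. Names that end in x_at or s_at mark probe sets that can bind related transcripts. Apart from injected replicate 3, the order of the arrays was shared by the 4 probe sets, with injected replicate 4 lowest and control replicate 2 highest in each. Injected replicate 3 lay below all controls at 1459737_s_at and among them at the others.

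Rlbp1, the 11-cis-retinoid carrier CRALBP of Müller glia and pigment epithelium, had a difference nearer 0 than the members above. The values were 13.79, 13.51, 13.57 and 14.17 in injected and 14.08, 14.05, 14.20 and 14.18 in control retina. Injected replicates 1 to 3 were below all controls and injected replicate 4 lay among them. The difference was -0.37 ± 0.19 (SE; 95% interval -0.80 to 0.07; adjusted p = 0.73), or 1.29-fold lower. With arrays centred on their medians it was -0.59, a scaling that also moved the median of all tested probe sets to -0.15 where it was -0.02. Control replicate 2 was the lowest control for Rlbp1, and the highest for Rpe65, Lrat, Rdh5, Rgr and Ttr. Of 12 Müller glia genes taken for comparison, 3 differences were positive and 9 negative with a median of -0.22. All injected retinas lay below all controls at 1 of the 12, against 2.65% of all tested genes. That gene was the carbonic anhydrase Car14 (-0.76 ± 0.21, SE, adjusted p = 0.57).

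Rdh11, a retinol dehydrogenase of photoreceptors and other tissues that reduces all-trans-retinal, had the most even difference. Its brighter probe set read 10.54, 10.52, 10.38 and 10.60 in injected and 11.21, 11.11, 11.29 and 11.44 in control retina. The injected retinas lay close to each other and below all controls. The mean was 10.51 ± 0.09 in injected and 11.26 ± 0.14 in control retina (SD, n = 4 each), and the difference came to -0.76 ± 0.16 (SE; 95% interval -1.13 to -0.38; adjusted p = 0.442), or 1.69-fold lower. With array weights the adjusted p was 0.17, the smallest under any alternative tried. At the other Rdh11 probe set (1449209_a_at) the values were 9.51, 10.08, 8.18 and 9.97 in injected and 9.88, 9.83, 9.91 and 10.43 in control retina (difference -0.58 ± 0.40, SE; adjusted p = 0.75). There the groups overlapped, and without injected replicate 3 the difference was -0.16.

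Rdh12, the related dehydrogenase of photoreceptor inner segments, gave a different answer at each of its probe sets. The brighter one (1424256_at) read 11.11, 10.83, 11.96 and 11.71 in injected and 11.56, 11.10, 11.65 and 11.31 in control retina. The groups were interleaved there, with a difference of -0.01 ± 0.28 (SE; 95% interval -0.63 to 0.62; adjusted p = 0.997) that changed sign on leaving out single arrays. The dimmer one (1431010_a_at) read 9.83, 9.37, 9.48 and 9.08 in injected and 10.20, 9.95, 10.45 and 10.37 in control retina. All injected retinas were below all controls there, and the difference was -0.80 ± 0.21 (SE; 95% interval -1.28 to -0.32; adjusted p = 0.548). Where on the transcript each probe set lies is not given in the sources used here, and the disagreement between them leaves Rdh12 uncertain.

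**Figure D2:**
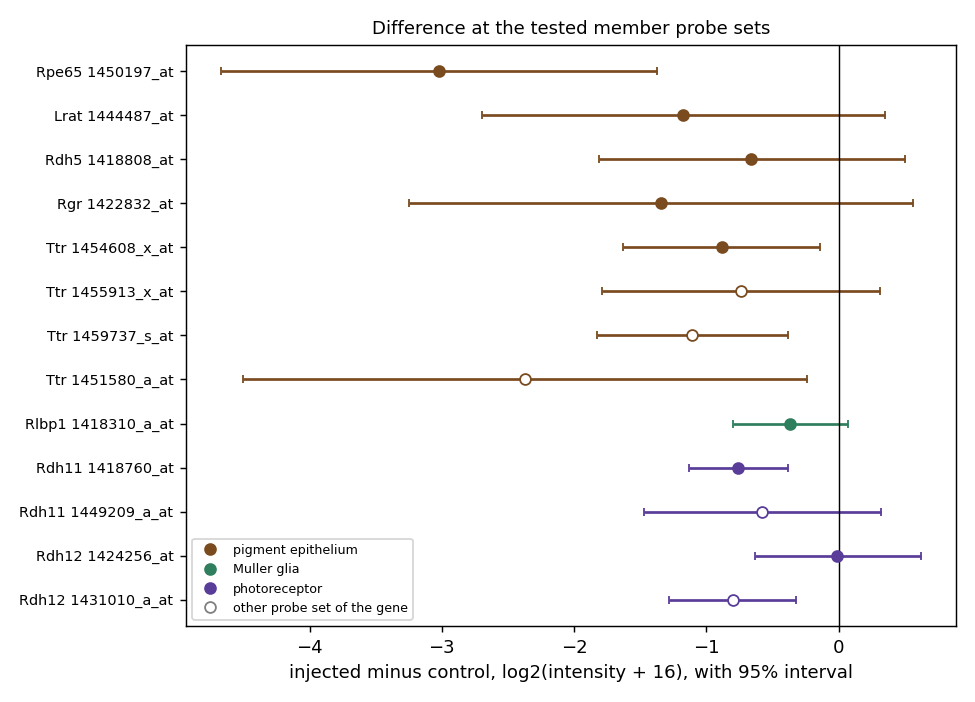
Injected minus control on the log2(intensity + 16) scale with its 95% interval from limma at the 13 tested member probe sets, coloured by the cells that chiefly express the gene, with open circles for a gene's other probe sets. Every point lies at or below 0, from -3.02 for Rpe65 to -0.01 for the brighter probe set of Rdh12, and 6 intervals exclude 0 before adjustment.

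**Figure D3:**
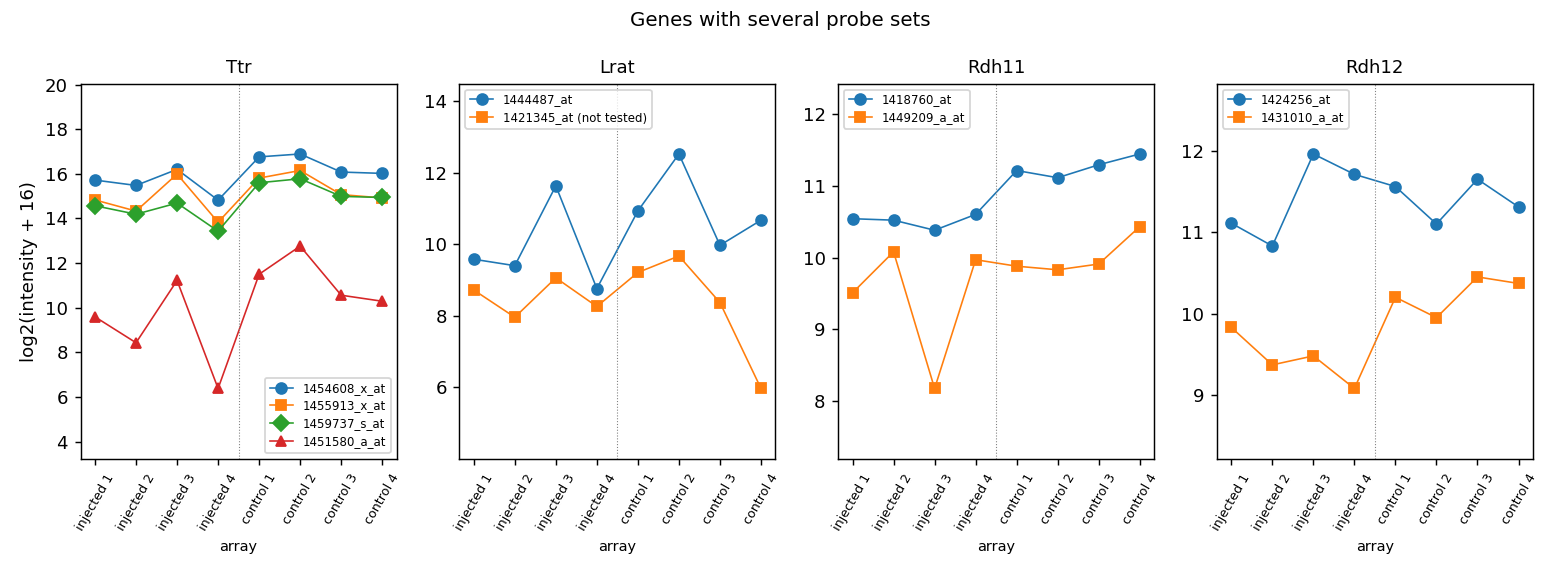
Log2(intensity + 16) on each array for the 4 genes with several probe sets, injected arrays left of the dotted line and control arrays right of it. The Ttr probe sets share their order of arrays apart from injected replicate 3, while the dimmer Rdh12 probe set is lower in all injected retinas and the brighter one is not.

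The 5 tested pigment epithelium members moved together from array to array within the groups, and genes of other cells moved with them. After each group's mean was taken off, Pearson's r over the 8 arrays ran from 0.71 to 0.97 in the 10 pairs of Rpe65, Lrat, Rdh5, Rgr and Ttr, and was 0.97 for Lrat with Rdh5. The same r of these 5 genes was -0.87 to -0.62 with Rdh11, -0.75 to -0.28 with Rlbp1 and -0.01 to 0.23 with Rdh12. With Csf1r, a receptor gene of microglia, it was 0.71 for Rpe65, 0.92 for Lrat, 0.95 for Rdh5, 0.94 for Rgr and 0.81 for Ttr. With Glul, the glutamine synthetase of Müller glia, it was 0.32 for Rpe65, 0.71 for Lrat, 0.72 for Rdh5, 0.82 for Rgr and 0.78 for Ttr. Injected replicate 3, the array of lowest weight, was the highest injected array for Lrat, Rdh5, Rgr, Ttr, Csf1r and Glul. Csf1r read 16.56 there and 15.13 to 15.43 on the other injected arrays. What r would be without that array was not computed. All these r values share the same 8 arrays and their scaling, and are given as a description. Those of Rpe65 also rest on injected replicates 2 and 4, where it was under the floor. By the rule for likeness, the closest genes to Rgr over all 8 arrays were the amino acid transporter gene Slc6a20a (r = 0.980), Ttr at 1455913_x_at (0.978) and Zic5 (0.974), and those closest to Lrat were Gli2 (0.989) and Rdh5 (0.970). Closest to Rpe65 were Tada3 (0.975) and Catsper2 (0.961), and to Rdh11 the phosphatase gene Dusp4 (0.980) and Nol8 (0.977).

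**Figure D4:**
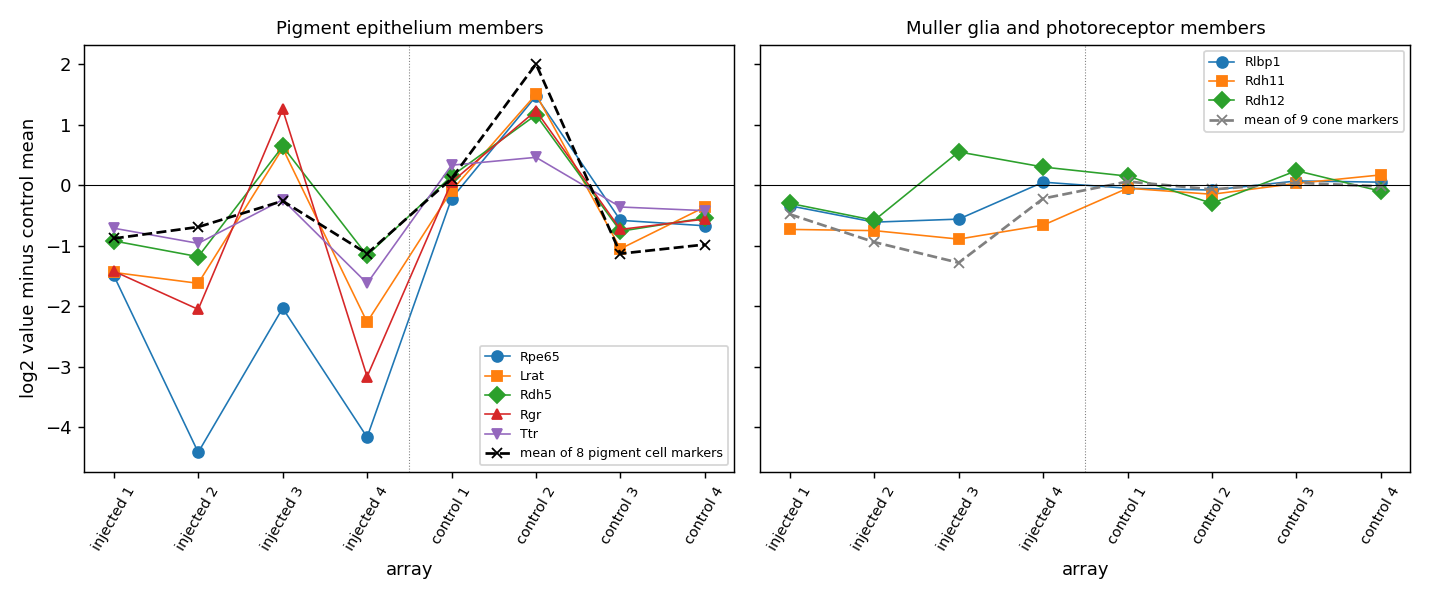
Log2 value minus the control mean of the gene on each array, injected arrays left and control arrays right of the dotted line, with pigment epithelium members and the mean of 8 pigment cell markers in the left panel and the other members with the mean of 9 cone markers in the right panel. Stra6, which was not tested, is not drawn. Control replicate 2 is the highest control for each of the 5 pigment epithelium genes drawn, injected replicate 3 is above the control mean for Lrat, Rdh5 and Rgr, and Rpe65 is at -2.03 on that array.

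Genes of melanin-making cells were read beside the pigment epithelium members. The summed intensity of the 9 of 10 markers with a probe set was 9843 to 26610 in injected and 11318 to 235997 in control retina, with the top value in control replicate 2. The melanin synthesis genes Tyrp1 and Dct differed by -0.93 ± 1.30 and -1.69 ± 0.99 (SE), with overlapping groups, and Pmel, a melanosome fibril gene, by -0.89 ± 0.97. Without control replicate 2 Tyrp1 and Pmel turned positive (0.11 and 0.17), and Dct was at -0.79. Without injected replicate 4 Tyrp1 was at 0.08. Mitf, the transcription factor of pigment cells, was the 1 of 8 tested markers with injected retinas below all controls, against 2.65% of all tested genes. It read 11.33, 11.45, 11.13 and 11.25 in injected and 11.78, 13.08, 11.82 and 11.66 in control retina. Its difference was -0.79 ± 0.31 (SE, adjusted p = 0.709). The Mitf difference was -0.46 without control replicate 2. Best1, a chloride channel of pigment epithelium, was below the floor on every array (5.64 to 6.64 in injected, 5.65 to 6.04 in control retina). With control replicate 2 and injected replicate 3 both left out, the Rpe65 difference was -2.90 and that of Rgr -1.84. Control replicate 2 also had the highest signal of 7 fibroblast genes of choroid and sclera, whose sum was 12365 to 16497 in injected and 10066 to 55145 in control retina. A separate list of 11 pigment epithelium genes with a probe set summed to 43434 to 70703 in injected and 52587 to 113102 in control retina. Of its 8 tested genes 0 were lower and 1 was higher at an unadjusted p under 0.05, against 2.91% and 3.77% of all tested genes. The higher one was Serpinf1, at 0.81 ± 0.31 (SE, limma adjusted p = 0.709), with overlapping groups. Injected retinas lay below all controls at 1 of the 8, Itgb8 (-0.32 ± 0.16, SE, limma adjusted p = 0.725), against 2.65% of all tested genes. Of the 8 differences 2 were positive and 6 negative, with a median of -0.33. Ptgds, the prostaglandin D synthase, was at -0.90 ± 0.58 (SE), or -0.47 without control replicate 2. Lens crystallin and other lens genes summed to 3714 to 77367 in injected and 1268 to 15100 in control retina. The share of the members' differences that goes with these markers was not tested.

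Rpe65 did not follow the other tested pigment epithelium members on injected replicate 3. Set against each gene's own control mean, that array was at 0.61 for Lrat, 0.64 for Rdh5, 1.25 for Rgr and -0.24 for Ttr on the log2 scale, and at -2.03 for Rpe65. On injected replicates 2 and 4 Rpe65 was under the floor, so its distance from the control mean is not measured there; the other 4 genes lay between -3.16 and -0.96. On injected replicate 1 the 5 genes lay between -1.49 and -0.71. The control arrays gave a like order for all 5, with control replicate 2 highest in each. This comparison was picked after the values had been seen and carries no test.

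Other genes of the retinoid cycle were read from a list of 18, of which 13 had a probe set and all 13 were tested. In limma 0 passed after adjustment. At an unadjusted p under 0.05, 2 were lower, both visual pigments of cones, against 2.91% of all tested genes. The median difference was -0.11, with 5 positive and 8 negative. The short-wavelength opsin Opn1sw read 11.13, 10.03, 9.44 and 12.15 in injected and 12.76, 12.63, 12.95 and 12.70 in control retina, a difference of -2.07 ± 0.51 (SE; adjusted p = 0.517). For the medium-wavelength opsin Opn1mw the difference was -1.39 ± 0.33 (adjusted p = 0.482). Both had all injected retinas below all controls, as did 2.65% of all tested genes. The other genes had intervals that span 0. Rbp3, the retinoid carrier between photoreceptors and pigment epithelium, was at 0.19 ± 0.21 (95% interval -0.28 to 0.67), and Abca4, the outer segment transporter of retinal conjugates, at -0.11 ± 0.24 (-0.64 to 0.42). Rdh10, a retinol dehydrogenase, was at 0.02 ± 0.28 (-0.62 to 0.66), Rrh, an opsin-like protein of pigment epithelium, at -0.17 ± 0.21, and Degs1, a lipid desaturase proposed to isomerise retinol in Müller glia, at -0.35 ± 0.19. As the mean of its probe sets Degs1 was at -0.64, and Rrh was at -0.08 without injected replicate 2 and -0.33 without injected replicate 3. The signs of Rbp3 and Rdh10 turned with arrays centred on their medians (-0.04 and -0.02).

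**Figure D5:**
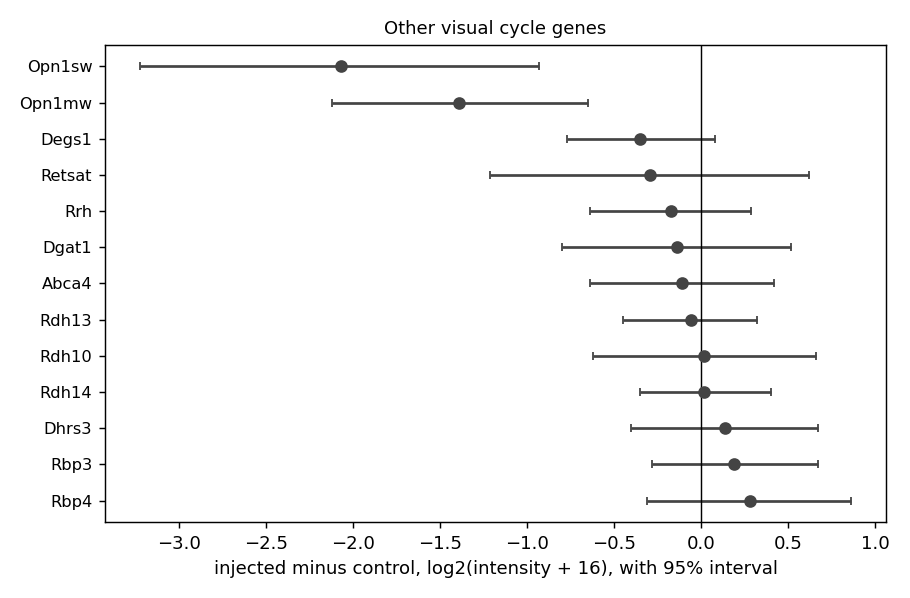
Injected minus control on the log2(intensity + 16) scale with its 95% interval from limma at the brightest probe set of 13 other visual cycle genes. Opn1sw (-2.07) and Opn1mw (-1.39) have intervals that exclude 0 before adjustment, and the other 11 span 0.

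Genes of the cells that hold the photoreceptor and Müller members were set beside them. Of 9 cone genes tested, all 9 differences were negative, where 51.5% of all tested genes were, with a median of -0.49. Injected retinas lay below all controls at 4 of the 9, against 2.65% of all tested genes. Cone arrestin Arr3 was among these 4 (-0.77 ± 0.19, SE, adjusted p = 0.522). Of 9 rod genes tested, 8 were negative with a median of -0.33. Injected retinas lay below all controls at 1 of the 9, against the same 2.65%. That gene was the phosphodiesterase subunit Pde6b (-0.64 ± 0.24, SE, adjusted p = 0.709). Rdh11 at -0.76 and the dimmer Rdh12 probe set at -0.80 lay inside the range of the cone genes (-2.07 to -0.17). The opsins Opn1sw (-2.07) and Opn1mw (-1.39) set its low end, and the next lowest cone gene was Gnat2 (-0.79). The brighter Rdh12 probe set at -0.01 lay outside the cone range and inside that of the rod genes (-0.64 to 0.21). These ranges do not assign a member to a cell type. Across the arrays, within groups, Rlbp1 followed Opn1sw (r = 0.93) and Arr3 (0.82) over the 8 arrays, given as a description. With Glul of Müller glia the same r of Rlbp1 was -0.63. For Rdh11 it was 0.53 with Opn1sw and 0.30 with Arr3, and for the brighter Rdh12 probe set 0.04 and 0.22. Of 8 microglia and leukocyte genes tested, all 8 differences were positive with a median of 1.05, and 6 were higher at an unadjusted p under 0.05, against 3.77% of all tested genes. The ninth, Aif1, was below the floor on all arrays (4.67 to 7.10 in injected, 4.75 to 8.27 in control retina). The summed signal of the 9 was 66641 to 165327 in injected and 30675 to 57474 in control retina, and Csf1r was its largest term. Csf1r differed by 1.26 ± 0.35 (SE; adjusted p = 0.57), but by 0.55 as the mean of all its tested probe sets (adjusted p = 0.637), and the complement gene C1qc by 0.97 ± 0.20 (adjusted p = 0.393). The part of these cells in the members' differences was not tested.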

How the data were processed

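The table deposited by the authors holds a linear intensity for each probe set and array. Trimmed by 2% at either end, every array averages 2500, which is how globally scaled arrays look, and the software is not given in the sources used here. Median intensity ran from 495 to 766 over 8 arrays, whose number limits the precision. RNA quality was read from the Gapdh and beta-actin probe sets among the 64 control probe sets. The control probe sets were otherwise left out. This left 45037, of which 34945 had 1 gene symbol, 932 several and 9160 none.

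As array medians differed by 1.55 times, over the limit of 1.5 set in the design, intensities were quantile-normalised in limma 3.58.1 (R 4.3.3), transformed as log2(intensity + 16), and tested where the mean over 8 arrays reached the 40th percentile (27022 probe sets). Injected was compared with control by lmFit and eBayes. The brightest probe set stood for a gene. Scripts were tested on simulated data. The members, lists and tests were chosen with earlier results of these data known. Named were the members at every probe set, the 4 genes at most with the smallest p in a list, genes that members are set against and, for likeness, the 5 genes of highest Pearson r. Other settings tried were no filter, pseudocounts of 1 and 64, the deposited scaling, median centring, a trended robust prior, array weights, a replicate block, gene means of probe sets, each array left out and a pair left out. Probe sets were named from GEO's platform annotation, and the 15 member probe sets matched RefSeq by Entrez ID. Promoters came from RefSeq (GRCm38.p6), 12 windows for 8 members, with Python 3.11.15; figures were drawn with matplotlib 3.10.9.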

Additional observations from a re-analysis of the deposited data

Results flagged for a closer look

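Of the 30 sets of 4 values (15 probe sets in each group), 2 held a value far from the other 3, and chance alone flags about 1 in 20 such sets. Rdh5 stood at 10.70 in injected replicate 3, with a gap to the nearest injected value of 0.858 of the group's range. Rdh11 stood at 10.43 in control replicate 4 at its dimmer probe set (1449209_a_at), with a gap of 0.870 of the range.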

How the results depend on the processing

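No tested member passed under any of the 18 alternatives (0 in each). Of 144 comparisons of the 8 tested members with an alternative 140 kept their direction and 4 reversed, all 4 of them Rdh12. Some of the 140 were fixed in advance. The fit without a filter, the trended robust prior and the replicate block can change a p-value but not a difference. The gene mean likewise cannot move a member with a single tested probe set. Rdh12 ran from -0.20 to 0.18 as single arrays were left out, and was positive without injected replicate 1 (0.09), injected replicate 2 (0.18), control replicate 1 (0.04) and control replicate 3 (0.07). Over all probe sets limma called 0, but 8 with array weights (7 higher, 1 lower) and 0 to 34 as single arrays were left out, the 34 without injected replicate 4 (29 higher, 5 lower); at an unadjusted p under 0.05 it called 990 higher and 899 lower. Among other named genes, Abca4 reversed without injected replicate 2 (0.08; lowest -0.25 without another single array), Rbp3 with median centring (-0.04) and Tyrp1 without injected replicate 4 (0.08) or control replicate 2 (0.11; lowest -1.75). Rdh10 reversed with median centring (-0.02), array weights (-0.16), the mean of its probe sets (-0.06), control replicate 2 and injected replicate 3 both left out (-0.20), and without injected replicate 3 (-0.26) or control replicate 1 (-0.03; highest 0.16). Pmel reversed without control replicate 2 (0.17; lowest -1.58) or with that pair left out (0.36). The cause was not tested. Replicate numbers are shared by the groups' labels, but same-numbered arrays did not deviate together (r from -0.029 to 0.084 in 4 pairs; 2 of 8 arrays correlated best with their own number). With the replicate number as a block 0 probe sets passed overall and 0 of the members, with Rpe65 at -3.02 and Rdh11 at -0.76 (adjusted p = 0.728 for each).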

Other observations

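Retinoic acid, the other product of retinol in the eye, is made by the Aldh1a enzymes, broken down by Cyp26 enzymes and read by the nuclear receptors of the Rar and Rxr families. Of 14 genes in this list 13 had a probe set and 5 were tested, and in limma 0 passed after adjustment and 0 at an unadjusted p under 0.05. All 5 differences were negative, where 51.5% of all tested genes were, with a median of -0.41. The retinaldehyde dehydrogenase Aldh1a1 read 14.20, 13.70, 14.30 and 12.51 in injected and 14.13, 14.80, 13.66 and 14.08 in control retina, a difference of -0.49 ± 0.41 (SE; adjusted p = 0.772). Its groups overlapped, with injected replicate 4 lowest, and the difference was -0.11 without that array and -0.28 without control replicate 2. The receptor Rxrb differed by -0.41 ± 0.20 (adjusted p = 0.725).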
